A study of Mus musculus with 4 samples.

Results

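The 10 genes described here make, break down or sense prostaglandins: the cyclooxygenases Ptgs1 and Ptgs2, the synthases Ptges, Ptges3 and Ptgis, the inactivating enzyme Hpgd, and the prostaglandin E2 receptors Ptger1, Ptger2, Ptger3 and Ptger4. They were taken by gene symbol from the 53703 features of 4 single-cell RNA-seq libraries of mouse long bone, and each symbol matched 1 feature. The family was chosen on measured values, the genotype difference of Ptgs2 and some of its relatives in hypertrophic chondrocytes, so their levels in those cells are described here without a test. Mutants (Lats2iΔEC, labelled Lats2iECKO) carried floxed Lats2 alleles and the Cdh5(PAC)-CreERT2 transgene, which drives a tamoxifen-inducible Cre in endothelial cells (ECs). LATS2 is a kinase that restrains the transcriptional co-activators YAP1 and TAZ, and the deletion was targeted to ECs, not to chondrocytes. Controls were Cre-negative littermates that received the same tamoxifen, although their labels read untreated. All mice were 12 weeks old, with 2 libraries per genotype, and the cells came from digested metaphyses of femur and tibia depleted of blood lineages. The study calls the libraries of a genotype biological replicates, but the labels name no mice, so p-values measure only the spread between these libraries.

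Cyclooxygenases turn arachidonic acid, freed from membrane lipids by phospholipases, into prostaglandin H2. Ptgs1 encodes the form present in many resting cells, and Ptgs2 the form that stimuli, stress and inflammation induce. Ptges and Ptges3 encode microsomal and cytosolic prostaglandin E synthases, and Ptges3 is also a co-chaperone of HSP90. Ptgis makes prostacyclin, and Hpgd oxidizes prostaglandins to inactive products. Ptger1 couples to calcium, Ptger2 and Ptger4 raise cAMP, and Ptger3 mainly lowers it. In bone, prostaglandin E2 is known for acting on both bone formation and bone resorption. Hypertrophic chondrocytes are the enlarged cells at the lower end of the growth plate, marked by Col10a1 and Ihh.

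The 3 genes with the widest gap between genotypes in hypertrophic chondrocytes lie on different chromosomes of the mouse genome (GRCm39). Ptgs2 is at chr1:149975194-149983978 on the plus strand, Ptges at chr2:30779483-30820196 on the minus strand and Ptger3 at chr3:157272492-157352099 on the plus strand. The stretches upstream of the start of each canonical transcript are shown because these RNAs were all higher in mutant hypertrophic chondrocytes. For Ptgs2 and Ptges that start lies inside the annotated span of the gene. The sequences were read from the reference genome, not from these mice. Capitals mark motif matches. For Ptgs2 the stretch runs from 85 to 56 bases before the start (chr1:149975403-149975432, plus strand), and for Ptges (chr2:30793356-30793555, minus strand) and Ptger3 (chr3:157272292-157272491, plus strand) it covers the last 200 bases.
Ptgs2: tgagcagcgagcaCGTCAgactgcgcccca
Ptges: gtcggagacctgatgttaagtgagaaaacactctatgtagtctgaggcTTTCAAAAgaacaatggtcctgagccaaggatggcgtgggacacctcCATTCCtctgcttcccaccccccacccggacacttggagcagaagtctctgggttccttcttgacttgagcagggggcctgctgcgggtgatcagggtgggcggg
Ptger3: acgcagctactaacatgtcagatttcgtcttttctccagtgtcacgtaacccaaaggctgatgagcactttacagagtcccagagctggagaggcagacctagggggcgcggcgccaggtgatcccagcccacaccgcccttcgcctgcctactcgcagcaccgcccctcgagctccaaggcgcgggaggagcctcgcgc

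Motifs were searched on both strands of the 200 bases before the start of each member. The core of the cAMP response element was read as TGACG and the TATA box as TATAAA. The E-box was read as CACGTG, the TEAD motif as GGAATG, the RUNX motif as TGTGGT and the C/EBP motif as TTNCNNAA, and the NF-kB consensus was searched too. Ptgs2 held TGACG on the reverse strand, 72 bases before the start, a match that 16.0% of 21757 promoter windows of protein-coding genes also had. An alternative first exon of Ptgs2 covers most of its window, so only 30 bases are shown. The Ptgs2 search thus describes the canonical start and not the sequence upstream of the whole gene. Ptges held TTNCNNAA, found in 29.9% of windows, and GGAATG on the reverse strand, found in 9.48% of windows. Ptger3 held no match. The 3 windows before the canonical starts therefore shared none of the 7 motifs.

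The libraries held between 69636600 and 85899079 UMIs, and between 5119 and 6813 barcodes per library passed the filters, 24599 in all. Between 6 and 16 barcodes were shared by any pair of libraries, against 4.44 to 6.80 expected if barcodes were drawn independently. In ECs of all kinds, Lats2 stood at 92.7 and 98.0 CPM in the mutants and 135 and 123 CPM in the controls. CPM is the UMI count of a gene per 1000000 UMIs of the same library and cell type. The Cre-ERT2 transcript was at 54.6 and 49.9 CPM in mutant ECs and at most 0.932 CPM in control ECs. Lats2 in hypertrophic chondrocytes was at 47.2 and 52.7 CPM in mutants and 48.8 and 43.9 CPM in controls.

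Hypertrophic chondrocytes were gated on Col10a1, Ihh, Panx3, Vegfa and Mef2c. The gate held 758 and 764 barcodes in the mutant libraries and 204 and 196 in the controls. The gate required Col10a1, so marker levels inside it describe the gate and do not check its label: Col10a1, the collagen of hypertrophic cartilage, was at 17587 and 17693 CPM in mutants and 18491 and 15503 CPM in controls. Ihh was at 733 and 765 CPM in mutants and 662 and 735 CPM in controls. Other markers differed between the genotypes. Vegfa was at 577 and 565 CPM in mutants against 144 and 127 CPM in controls, and the 8 chondrocyte markers summed to between 31503 and 31585 CPM in mutants against 56455 to 61316 CPM in controls. The study takes Ihh as a marker of early and Vegfa of late hypertrophic chondrocytes. The gate pools both stages, and their makeup can thus differ between genotypes. Markers of other cell types differed too. The 8 fibroblast markers summed to 336 to 442 CPM in mutants against 34.8 to 42.9 CPM in controls, with 2 and 1 of them reaching 10 CPM. The 3 superficial chondrocyte markers summed to 112 to 322 CPM against 25.7 to 64.4 CPM and the 5 erythroid markers to 365 to 442 CPM against 114 to 139 CPM. The 8 osteoblast markers were lower in mutants, at 8790 to 9745 CPM against 14635 to 16070 CPM. Of the 9 leukocyte and 7 general endothelial markers none reached 10 CPM in either genotype, and each list summed to 30.3 CPM or less. The 4 sinusoidal EC markers summed to 69.0 to 73.0 CPM in mutants against 47.8 to 61.4 CPM in controls, with 1 marker reaching 10 CPM. Control barcodes of the gate were also deeper, with medians of 17527 and 18103 UMIs against 9699 and 8756 UMIs. The part of these differences in the member levels was not tested, except that shares of cells were recomputed at a fixed depth.

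Ptgs2, Ptges and Ptger3 were the members with the widest gap in the hypertrophic gate. Ptgs2 was at 374 and 368 CPM in the mutant libraries (3401 and 3188 UMIs) and at 33.8 and 44.5 CPM in the controls (122 and 158 UMIs), a log2 fold change of 3.24 (SE 0.12). Both mutant libraries were far above both controls. Ptges was at 72.9 and 73.7 CPM in mutants and at 1.11 and 1.13 CPM in controls, where each library held 4 UMIs, a log2 fold change of 6.01 (SE 0.19). Ptger3 was at 32.7 and 38.5 CPM in mutants and at 0.830 and 1.13 CPM in controls, with 3 and 4 UMIs, a log2 fold change of 5.15 (SE 0.27). Each SE in this report is derived from the F statistic of the edgeR fit. Where a genotype held only a few UMIs, as for Ptges and Ptger3 here, it understates counting error and is no measure of precision. Transcripts of the inducible cyclooxygenase, of the prostaglandin E synthase coupled to it and of a cAMP-lowering prostaglandin E2 receptor were thus all present in mutant hypertrophic chondrocytes, the last pair being close to the detection floor in controls.

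The other members of the gate differed less. Ptgis was at 418 and 407 CPM in mutants and 267 and 216 CPM in controls (log2 fold change 0.77, SE 0.092). Ptges3 was at 111 and 113 CPM in mutants and 89.9 and 90.9 CPM in controls (0.30, SE 0.076), and its reads are uncertain because a processed copy, Ptges3-ps, is close in sequence. The remaining pair had lower levels in mutants. Hpgd was at 439 and 440 CPM in mutants and 596 and 525 CPM in controls (-0.36, SE 0.075). Ptgs1 was at 29.8 and 23.5 CPM in mutants and 41.2 and 49.5 CPM in controls (-0.77, SE 0.15). For none of these did the genotypes overlap, but this was not set against all genes of the gate, and nothing is read from it. Ptger1, Ptger2 and Ptger4 stayed at or under 1.21 CPM in all 4 libraries and did not pass the filter on low counts. Of the 7 members that passed, 3 exceeded the thresholds used throughout (an adjusted p no larger than 0.05 together with an absolute log2 fold change of 1 or more), beside 14.3% of the 13641 genes tested in this gate. That count describes the choice of the family and nothing is read from it.

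**Figure D1:**
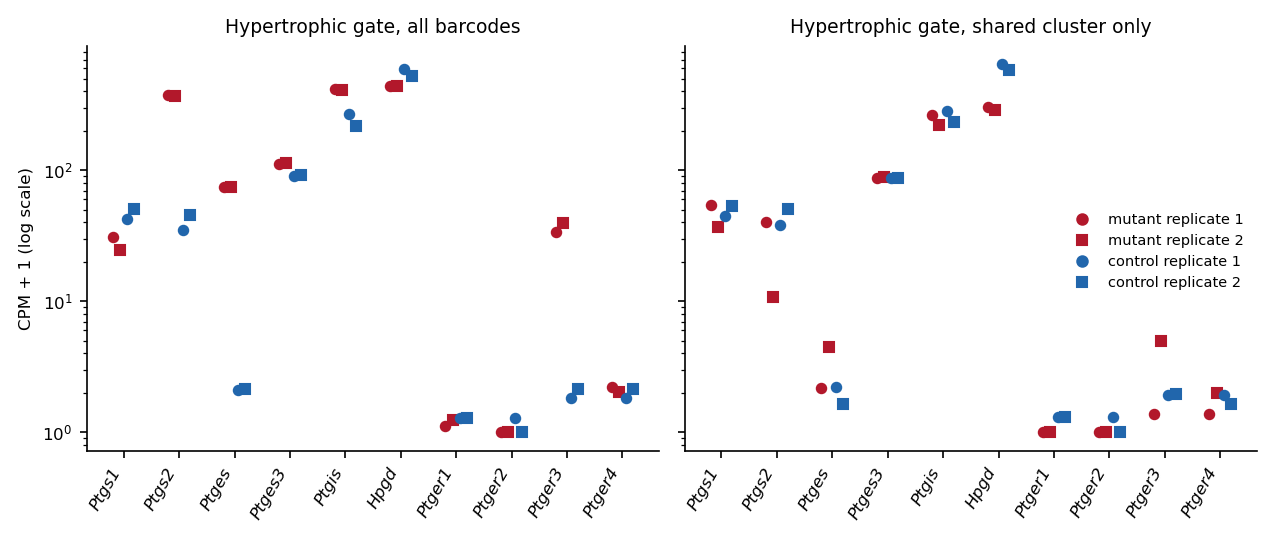
Level of each member (CPM + 1, log axis) in the hypertrophic gate, for all its barcodes (left) and for those in the cluster that holds cells of both genotypes (right). Points are single libraries, mutant in red and control in blue. Ptgs2, Ptges and Ptger3 separate the genotypes on the left, and on the right Hpgd is the member with the widest clear gap.

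Clustering the cells on genes other than the members split the hypertrophic gate in 2 main parts. One cluster held 1174 mutant and 3 control barcodes of the gate, and another, called the shared cluster here, held 208 mutant and 359 control barcodes. The clusters were built without integrating the libraries, which the study did, and from genes that differ between the genotypes. Their sizes are therefore no result. Mutant barcodes of the shared cluster are those that grouped with control barcodes on these genes. Member levels within the clusters thus describe selected barcodes and do not compare the genotypes at large. In the mutant cluster Ptgs2 was at 637 and 590 CPM, Ptges at 122 and 117 CPM and Ptger3 at 55.8 and 61.2 CPM. In the shared cluster Ptgs2 was at 39.3 and 9.84 CPM in mutants and 37.3 and 49.7 CPM in controls, and Ptges stood at 3.44 CPM or less in every library. High levels of Ptgs2, Ptges and Ptger3 thus lay in the mutant cluster, while Ptgs2 and Ptges were low in the shared cluster. Barcodes of the gate in neither cluster were not compared. The mutant cluster was led by Ptgs2 with Sost, Ffar4, Pde11a, Kirrel3, Dkk1, Loxl4 and Espn, and none of its 10 leading genes was a fixed marker of hypertrophic cells. The 8 chondrocyte markers summed to 15421 to 15537 CPM in its mutant barcodes, against 54404 to 56320 CPM in mutant barcodes of the shared cluster. The 8 osteoblast markers were also lower in mutant barcodes of the mutant cluster, at 876 to 1010 CPM against 17674 to 19695 CPM in those of the shared cluster. The 5 hypertrophic markers went the other way, at 25423 to 25736 CPM against 15013 to 16641 CPM, and the 8 fibroblast markers summed to 541 to 629 CPM against 57.8 to 69.8 CPM. The median depth of the mutant cluster was lower, with 8082 and 7661 UMIs per barcode against 17525 to 22694 UMIs in the shared cluster.

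Hpgd behaved differently in the shared cluster. It was at 302 and 286 CPM in mutants and 647 and 579 CPM in controls, a log2 fold change of -1.0 (SE 0.094) that only just reached the fold threshold, beside 2.82% of 11092 genes past the thresholds in this cluster. This subset was chosen after seeing the data, and the value is a description like the others of these cells. The 5 hypertrophic markers also differed within this cluster, at 15013 to 16641 CPM in mutants against 20888 to 23633 CPM in controls. Their part in the Hpgd gap was not tested. Ptgis (264 and 219 CPM against 282 and 233 CPM), Ptgs1 (53.4 and 35.9 CPM against 44.0 and 52.5 CPM) and Ptges3 (85.6 and 87.5 CPM against 87.0 and 86.9 CPM) overlapped or lay within a few CPM between genotypes. In the mutant barcodes of the mutant cluster Ptgis was at 540 and 525 CPM, Hpgd at 607 and 577 CPM and Ptgs1 at 18.1 and 16.1 CPM, and with 3 control barcodes no genotype comparison could be made there.

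A Ptgs2 UMI was found far more often in mutant than in control hypertrophic barcodes. The share with at least 1 UMI was 52.5% in mutant 1 (exact 95% interval 48.9 to 56.1) and 52.5% in mutant 2 (48.9 to 56.1), and 11.8% (7.69 to 17.0) and 11.2% (7.17 to 16.5) in the controls. After thinning each barcode to 3000 UMIs, which left out 50 and 55 mutant and 4 and 4 control barcodes, the shares were 40.0% and 39.6% against 5.5% and 5.21%. The gap between genotypes therefore held at equal depth. ECs gave the background: 2.73% and 2.37% of mutant ECs held a Ptgs2 UMI, at median depths of 6566 and 6544 UMIs. In control ECs it was 0 of 796 barcodes, which allows a share of up to 0.377%, and 0.255%, at median depths of 5540 and 5195 UMIs. The control share in hypertrophic cells was above this background. Intervals and floors cover counting error only.

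Control Ptgs2 came from very few cells. The 5 highest barcodes held 73.0% and 75.9% of all Ptgs2 UMIs of the gate in the control libraries and 8.76% and 9.57% in the mutants. Among positive barcodes the median was 5 and 4 UMIs in mutants and 1 and 2.5 UMIs in controls, with a highest barcode of 66 and 70 against 38 and 30 UMIs. Single control barcodes thus reached high levels, but barcodes with 10 or more UMIs made up 15% and 14.9% of the gate in mutants and 1.47% and 2.55% in controls.

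Ptges and Ptger3 were also detected in a large share of mutant barcodes. A Ptges UMI was found in 39.8% and 42.9% of mutant and 0.980% and 1.53% of control hypertrophic barcodes, or 21.6% and 22.6% against 0.5% and 0.521% after thinning. Ptger3 was detected in 21.1% and 23.8% against 0.980% and 1.53%, or 10.0% and 11.6% against 0.5% and 1.56% after thinning. Thinning left both gaps in place. For Ptgis the genotypes overlapped at full depth and separated after thinning: 84.8% and 84.9% of mutant against 91.7% and 82.1% of control barcodes held a UMI at full depth, but 61.6% and 63.9% against 52% and 38% did after thinning. Hpgd and Ptgs1 were detected less often in mutants with and without thinning, at 43.1% and 44.0% against 55% and 50% for thinned Hpgd and 7.63% and 5.78% against 11.0% and 15.6% for thinned Ptgs1.

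**Figure D2:**
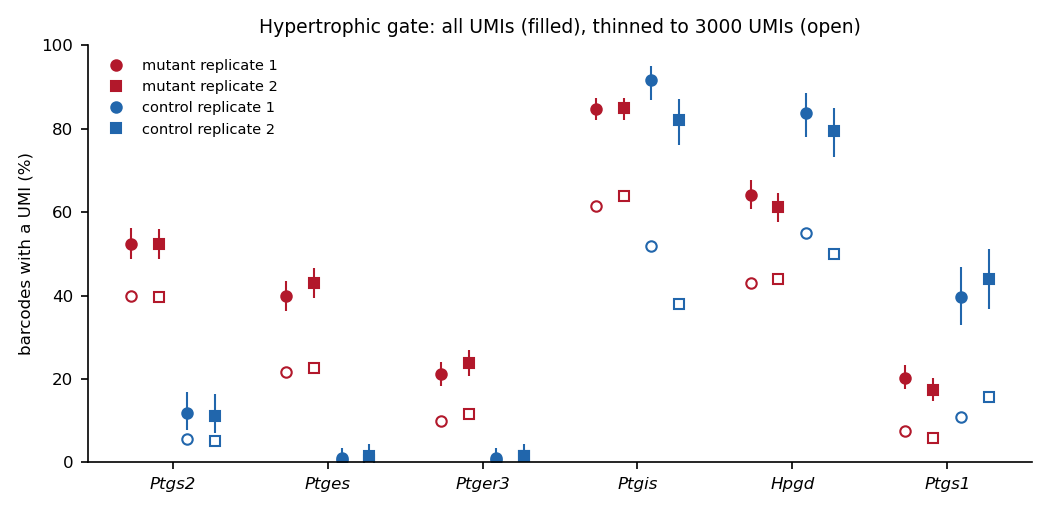
Share of hypertrophic barcodes with at least 1 UMI (%), per library, for 6 members. Filled symbols use all UMIs with exact 95% intervals, open symbols use barcodes thinned to 3000 UMIs. The mutant shares of Ptgs2 are 52.5% at full depth and near 40% after thinning, and the Ptgis shares of the genotypes overlap at full depth and separate after thinning.

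Within the mutant libraries, barcodes with a Ptgs2 UMI also carried more of most other members. Ptges was at 116 and 118 CPM in the 398 and 401 barcodes with a Ptgs2 UMI and at 37.0 and 36.7 CPM in the barcodes without one. Ptger3 was at 53.2 and 58.0 CPM against 15.7 and 22.0 CPM. Hpgd was at 565 and 561 CPM against 334 and 338 CPM, and Ptgis at 501 and 506 CPM against 348 and 323 CPM. Ptgs1 went the other way, at 17.2 and 16.9 CPM with a Ptgs2 UMI and 40.2 and 29.0 CPM without. Detection was also linked per barcode, since 53.5% and 55.1% of Ptgs2-positive barcodes held a Ptges UMI against 24.7% and 29.5% of the negative ones. In the controls, with 24 and 22 positive barcodes, Hpgd was at 1172 and 1045 CPM with a Ptgs2 UMI and 514 and 452 CPM without, while Ptges remained at 4.57 CPM or less. Median depths of positive and negative barcodes were 8791 and 8406 against 10821 and 9947 UMIs in mutants. In controls they were 18183 and 19820 against 17345 and 18022 UMIs, and the part of depth was not tested. The barcodes were not split by cluster either. In mutants the mutant cluster was higher than the shared cluster in Ptgs2, Ptges, Ptgis and Hpgd and lower in Ptgs1. The levels are descriptions over barcodes of the same library.

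The members also differed along the hypertrophic score, which averages the scaled levels of the 5 gate markers. From the bin just inside the gate (score 0.35 to 0.4, 170 mutant and 31 control barcodes) to the highest bin (0.6 and above, 616 and 167 barcodes), pooled mutant levels went from 259 to 436 CPM for Ptgs2. Over the same bins Ptges went from 49.2 to 94.1 CPM and Ptger3 from 18.7 to 50.9 CPM. All 3 were therefore highest in the mutant barcodes with the strongest hypertrophic markers. Just outside the gate (score 0.3 to 0.35, 138 mutant and 124 control barcodes) mutant Ptgs2 was still at 209 CPM. In controls Ptgs2 stayed between 21.8 and 78.6 CPM with no steady trend. Hpgd and Ptgis were higher toward high scores in both genotypes, control Hpgd from 163 to 865 CPM and control Ptgis from 113 to 316 CPM. In mutants these went from 281 to 567 CPM and from 232 to 538 CPM. Inside the gate, Hpgd in controls thus exceeded mutants in the top bin alone.

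**Figure D3:**
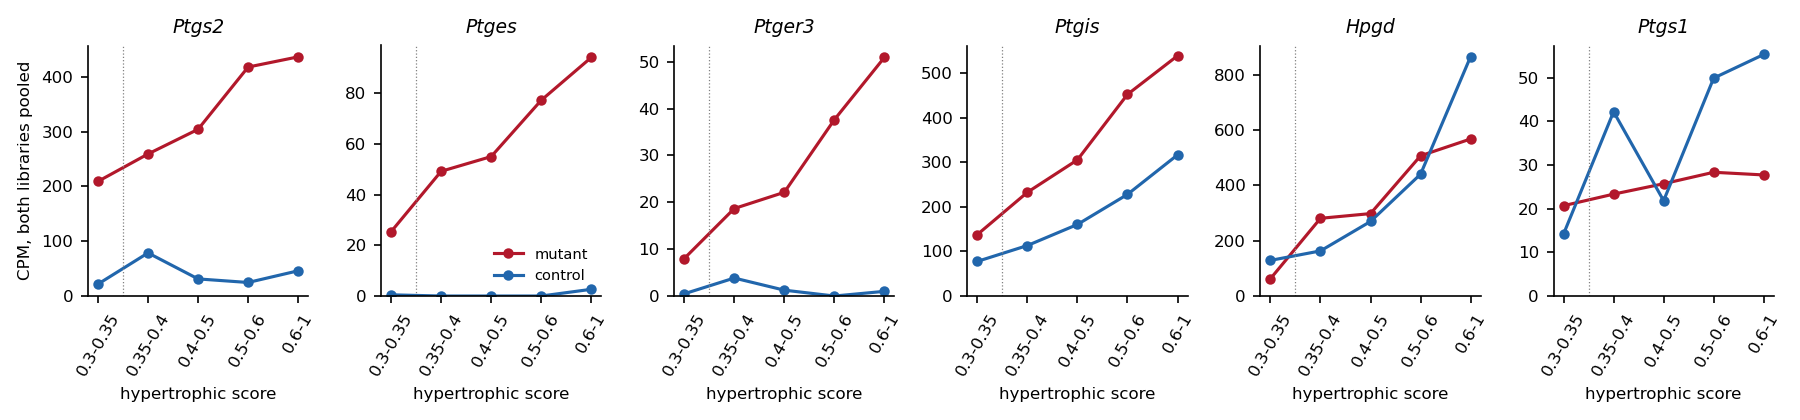
Level (CPM, both libraries of a genotype pooled) of 6 members in bins of the hypertrophic score, mutant in red and control in blue. The dotted line is the gate's lower limit. Mutant Ptgs2, Ptges and Ptger3 are higher at every score than the controls, and Hpgd and Ptgis are higher at high scores in both genotypes.

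Hypertrophic chondrocytes were compared with the gate of other chondrocytes of the same libraries, which leaves out superficial chondrocytes. Of 8 members compared, 6 were higher in hypertrophic cells, beside 12.9% of 15391 genes called in either direction and 4.76% called higher. The count includes Ptgs2, Ptges and Ptger3. Since the family was chosen on values of hypertrophic cells, the count and the differences are descriptions. With library as a block in edgeR, Hpgd had a log2 difference of 4.42 (SE 0.13), Ptgis 2.37 (SE 0.17) and Ptgs1 1.26 (SE 0.22). These 3 enzymes were higher than in other chondrocytes in both genotypes, although the mutant libraries alone gave Ptgs1 a difference of 0.77, under the fold threshold. Superficial chondrocytes were not in this comparison. They held Ptgis at a mean of 383 CPM and Ptgs1 at 35.8 CPM. Their library ranges overlapped those of the hypertrophic gate (means of 327 and 36.0 CPM). Ptger3 had a difference of 3.77 (SE 0.59) and Ptges one of 2.74 (SE 0.53), which was 2.23 without mutant replicate 1 and 2.18 without mutant replicate 2 and then no longer past the thresholds. These are descriptions, since both came from the mutant cells in which the family was chosen: control libraries alone gave -0.35 for Ptges and too few Ptger3 UMIs to test. Ptgs2 had a difference of 3.36, which is a description, and 3.79 in the control libraries alone. Ptges3 (-0.18) and Ptger4 (-0.19) were not past the thresholds.

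The genotype gap of the hypertrophic gate was set against that of the other chondrocytes, again as a description. The gap was wider in hypertrophic cells for Ptges by 3.72 (log2, SE 0.40) and for Ptger3 by 3.96 (SE 0.55), and Ptgs1 differed by -1.0 (SE 0.18). These 3 were past the thresholds, beside 4.55% of 16716 genes, although Ptgs1 was at -0.82 without mutant replicate 2 and -0.77 without control replicate 2. Ptgs2 (-0.66), Ptgis (-0.62), Hpgd (0.44), Ptges3 (0.38) and the sparse Ptger1 and Ptger4 were not. On the log2 scale the Ptgs2 gap was thus at least as wide in the other chondrocytes as in the hypertrophic gate. Most Ptgs2 UMIs of the other chondrocytes lay in barcodes of the mutant cluster, however, at 827 and 780 CPM in the mutant libraries. Outside the mutant and shared clusters the levels were 6.58 and 3.91 CPM in mutants against 1.38 and 0.147 CPM in controls.

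Outside the hypertrophic gate, 77 tests of a member in a cell type could be made, spread over 15 gates. Of these, 21 were past the thresholds, 15 with higher and 6 with lower levels in mutants. That is 27.3% of the member tests, beside 5.03% of 153080 tests over all genes in the 16 gates fitted. The share is not independent of the choice of the family, because the other chondrocyte gate also holds barcodes of the mutant cluster. Nothing is read from it. Adjusted p-values below are from edgeR's quasi-likelihood test over all genes of the gate, and an exact permutation test of 2 against 2 libraries could not go below p = 0.333. The other chondrocyte gate held the most, 5 of 9 members tested, all higher in mutants, beside 10.1% of its genes.

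**Figure D4:**
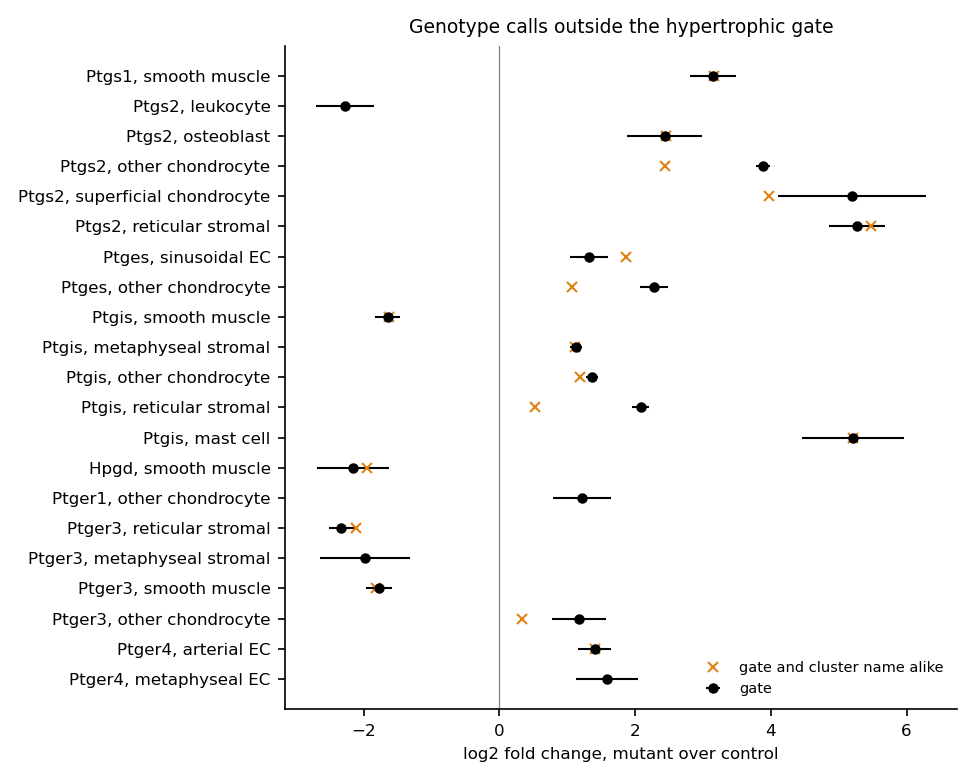
Log2 fold change (mutant over control) of the 21 member-by-gate results past the thresholds outside the hypertrophic gate. Dots are the gates with the SE derived from the F statistic, and crosses the same fit restricted to barcodes whose gate and cluster carry the same name. Where no cross is drawn the restricted fit gave no value. The crosses of Ptgis in reticular stromal cells and of Ptges and Ptger3 in other chondrocytes lie closest to 0 relative to their dots.

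Ptgs2 was past the thresholds with higher levels in 4 further gates and with lower levels in 1. In other chondrocytes it was at 46.2 and 43.8 CPM in mutants and 3.09 and 3.30 CPM in controls (log2 fold change 3.89, SE 0.11, adjusted p 9.71e-10). Most of these UMIs lay in 95 and 87 barcodes of the mutant cluster, at 827 and 780 CPM. Barcodes in clusters other than the mutant and the shared one were at 6.58 and 3.91 CPM in mutants and 1.38 and 0.147 CPM in controls. In reticular stromal cells, the Lepr- and Cxcl12-expressing cells of the marrow, Ptgs2 was at 16.6 and 10.7 CPM against 0.192 and 0.492 CPM (5.27, SE 0.41, adjusted p 2.26e-07, beside 4.79% of genes). A single barcode held 44 of 54 and 27 of 40 UMIs there, and without it the mutant levels were 3.07 and 3.47 CPM against 0.0962 and 0.197 CPM. The gap in reticular cells thus remained without the highest barcode, at a low level. A Ptgs2 UMI was found in 11 of 523 and 14 of 633 mutant reticular barcodes, against 2 of 1688 and 3 of 1626 in controls. The mutant shares were near those of mutant ECs, which served above as the background.

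In superficial chondrocytes, the Prg4-expressing cells of the joint surface, Ptgs2 was at 2.87 and 17.4 CPM in mutants and 0 and 0.480 CPM in controls (adjusted p 0.0158, beside 1.24% of genes). With 97 against 2 UMIs the pooled ratio was 39.9 (exact 95% counting interval 10.8 to 334), and 56 of the 83 UMIs of mutant 2 lay in 1 barcode. A UMI was found in 12 of 389 and 10 of 426 mutant barcodes, again near the mutant EC shares. In controls it was 0 of 359, which allows a share of up to 0.836%, and 2 of 396. In osteoblasts Ptgs2 was at 2.88 and 4.28 CPM against 0.808 and 0.495 CPM in the controls (2.44, SE 0.55, adjusted p 0.018, beside 2.15% of genes), from 5 and 10 against 9 and 6 UMIs. These lay in 5 of 120 and 7 of 138 mutant and 7 of 612 and 5 of 642 control barcodes. Both gates showed higher Ptgs2 in mutants at very low levels, and without mutant replicate 2 neither was past the thresholds (adjusted p 0.176 in superficial chondrocytes, where it reached 0.389 over the alternatives, and 0.222 in osteoblasts, the highest there). In leukocytes Ptgs2 fell, at 16.5 and 30 CPM in mutants and 123 and 107 CPM in controls (-2.27, SE 0.43, adjusted p 0.0471, beside 0.885% of genes). These are 10 and 11 mutant and 31 and 33 control barcodes left after the depletion of blood cells, with 3 and 5 against 40 and 36 UMIs, and the call was lost without control replicate 1 (adjusted p 0.0583) and under 3 further alternatives (up to 0.337). Mast cells held Ptgs2 in both genotypes, at 91.3 and 38.2 CPM in mutants and 30.7 and 61.4 CPM in controls, with overlapping levels. Ordered by the mean over the 4 libraries, Ptgs2 was at 205 CPM in hypertrophic chondrocytes, 69.1 CPM in leukocytes, 55.4 CPM in mast cells and 24.1 CPM in other chondrocytes, and the ranges of neighbours in this order overlapped.

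Free RNA carried the same transcripts. In droplets with 10 to 100 UMIs, which hold no cell, Ptgs2 was at 137 and 118 CPM in mutants and 5.34 and 8.06 CPM in controls. Ptges was at 19.0 and 20.9 CPM in mutant and 1.27 and 2.44 CPM in control empty droplets. The low mutant levels of Ptgs2 and Ptges in other gates stood beside these free levels, and the part of free RNA in them was not tested.

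Ptgs1 was highest in megakaryocytes and 3 of the 4 EC gates. It was at 241 CPM in megakaryocytes (range 212 to 274 over the 4 libraries), then 107 CPM in ECs without a subtype, 107 CPM in sinusoidal ECs and 91.4 CPM in metaphyseal ECs. The 3 EC gates overlapped one another and lay below megakaryocytes, while arterial ECs held 17.5 CPM. Hypertrophic chondrocytes came next at 36.0 CPM, overlapping superficial chondrocytes and fibroblasts. Ptgs1 differed between the genotypes in smooth muscle, at 37.0 and 29.3 CPM in mutants against 2.81 and 4.63 CPM in controls (log2 fold change 3.15, SE 0.34, adjusted p 4.71e-07, beside 8.76% of genes). In none of the 10 other gates where it was tested outside the hypertrophic gate was Ptgs1 past the thresholds. In all ECs together it was at 81.0 and 74.4 CPM against 88.8 and 82.4 CPM (adjusted p 0.595).

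Ptges rose in other chondrocytes and in sinusoidal ECs. In other chondrocytes it was at 7.75 and 7.21 CPM in mutants and 1.55 and 1.68 CPM in controls (2.28, SE 0.20, adjusted p 4.4e-06). Barcodes in neither the mutant nor the shared cluster were at 3.57 and 3.21 CPM against 1.69 and 1.62 CPM, still without overlap. In sinusoidal ECs, the fenestrated marrow vessels, Ptges was at 34.2 and 30.8 CPM against 11.5 and 15.5 CPM (1.32, SE 0.28, adjusted p 0.00715, beside 5.25% of genes), which DESeq2 did not call (adjusted p 0.0985). It was not past the thresholds in reticular stromal cells, where it was at 12.6 and 16.3 CPM against 15.5 and 14.6 CPM. In control libraries the hypertrophic gate was thus among the lower Ptges gates, and in mutants it was the highest of all at 72.9 and 73.7 CPM. Ptges3 ranged from 57.4 CPM in osteoblasts to 224 CPM in leukocytes, and it was past the thresholds in no gate.

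Ptgis was highest in osteoblasts, followed by superficial chondrocytes, metaphyseal stromal cells and hypertrophic chondrocytes. It was at 665 CPM in osteoblasts (605 to 775), above superficial chondrocytes (383 CPM), metaphyseal stromal cells (363 CPM) and hypertrophic chondrocytes (327 CPM), which overlapped one another. Fibroblasts at 139 CPM and other chondrocytes at 72.8 CPM followed, while in the EC gates it averaged 7.53 CPM or less. In metaphyseal stromal cells, the Postn- and Wif1-expressing cells below the growth plate, Ptgis rose to 508 and 477 CPM from 244 and 222 CPM (1.13, SE 0.093, adjusted p 5.97e-08, beside 6.63% of genes). In other chondrocytes it rose to 97.4 and 109 CPM from 37.4 and 47.2 CPM (1.36, SE 0.094, adjusted p 4.67e-07). In both gates the genotypes did not overlap, but with clusters in place of gates the fold changes were 0.53 and 0.91, under the fold threshold. In osteoblasts Ptgis was at 673 and 775 CPM against 607 and 605 CPM and was not past the thresholds (0.22, adjusted p 0.182).

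Ptgis also passed the thresholds in 3 gates where the result needs care. In reticular stromal cells it was at 80.4 and 62.7 CPM in mutants and 17.1 and 17.3 CPM in controls (2.08, SE 0.12, adjusted p 1.62e-08). There, 104 and 97 mutant and 15 and 11 control barcodes belonged to clusters of another name, and without them the levels were 24.6 and 20.7 CPM against 14.6 and 17.1 CPM, a log2 fold change of 0.52 that was not past the thresholds. With clusters in place of gates the fold change was -0.16. The reticular result thus rested on barcodes that the clusters placed elsewhere. In mast cells, with 15 and 18 mutant and 65 and 52 control barcodes, 26 mutant UMIs stood against 2 control UMIs (adjusted p 0.00304, beside 2.06% of genes), a pooled ratio of 44.0 with an exact 95% counting interval of 11.0 to 383. With clusters in place of gates the mast cell fold change was 0.44 (adjusted p 0.824), and without control replicate 2 the adjusted p was 0.152. In smooth muscle Ptgis fell to 17.6 and 18.6 CPM from 59.1 and 57.7 CPM (-1.65, SE 0.18, adjusted p 8.92e-07). Empty droplets held Ptgis at 168 and 166 CPM in mutants and 139 and 145 CPM in controls.

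Hpgd was highest in hypertrophic chondrocytes, at 500 CPM on average (439 to 596), above every other gate without overlap. Metaphyseal stromal cells at 206 CPM and osteoblasts at 182 CPM came next and overlapped, followed by reticular stromal cells at 78.8 CPM. Outside the hypertrophic gate it passed the thresholds in smooth muscle, falling to 0.926 and 2.48 CPM from 7.74 and 8.59 CPM (-2.15, SE 0.53, adjusted p 0.00469), a result lost without mutant replicate 1, control replicate 1 or control replicate 2 (adjusted p 0.133, 0.0621 and 0.0672, up to 0.177 over the alternatives). In other chondrocytes it was at 17.6 and 19.6 CPM in mutants and 34.9 and 33.8 CPM in controls, a log2 fold change of -0.81 (SE 0.083, adjusted p 1.27e-05) that missed the fold threshold. In osteoblasts it leaned the other way, at 199 and 215 CPM against 160 and 156 CPM (0.36, adjusted p 0.0256). The genotypes did not overlap in either gate.

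In smooth muscle 4 of 6 members tested were past the thresholds, beside 8.76% of genes. Ptgs1 rose, while Ptgis, Hpgd and Ptger3 fell. The study reports more Myh11-negative cells in the mutant smooth muscle cluster. The makeup of this gate can thus differ between genotypes, and its part in these results was not tested. With clusters in place of gates Ptgis was at -0.73 and Hpgd at -0.64 (log2), short of the thresholds. Ptger3 was at 19.0 and 20.2 CPM in mutants and 80.2 and 58.2 CPM in controls there (-1.77, SE 0.19, adjusted p 6.57e-07). Ptger2 was at 19.9 and 16.9 CPM against 27.4 and 14.5 CPM, with overlapping genotypes (-0.15, adjusted p 0.751).

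Among the receptors, Ptger3 moved in opposite directions in different cell types. It fell in reticular stromal cells, at 5.52 and 5.07 CPM in mutants and 26.3 and 28.2 CPM in controls (-2.33, SE 0.18, adjusted p 2.55e-07). In metaphyseal stromal cells it was at 0 and 2.75 CPM against 5.64 and 6.84 CPM (-1.98, SE 0.66, adjusted p 0.0458), from 0 and 4 against 21 and 24 UMIs, and without mutant replicate 1 it was -1.14 (adjusted p 0.362, up to 0.387 over the alternatives). In other chondrocytes it was higher, at 1.62 and 1.65 CPM against 0.421 and 1.08 CPM (1.17, SE 0.40, adjusted p 0.0377), but it was 0.65 without control replicate 1 and 0.34 in barcodes whose gate and cluster carried the same name, and without mutant replicate 2 the adjusted p was 0.063 (up to 0.616 over the alternatives). Mutant barcodes of this gate in the mutant cluster held Ptger3 at 19.9 and 16.8 CPM. Outside the mutant and shared clusters the genotypes overlapped, at 0.653 and 0.912 CPM in mutants against 0.460 and 1.18 CPM in controls. The hypertrophic gate, where it was at 32.7 and 38.5 CPM in mutants, and the stromal and mural gates thus lay on opposite sides. In controls Ptger3 was highest in smooth muscle, mast cells (58.5 and 37.3 CPM), leukocytes (30.7 and 29.8 CPM), fibroblasts (12.9 and 43.4 CPM) and reticular cells, and near its floor in hypertrophic chondrocytes.

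Ptger4 was a receptor of arterial ECs, megakaryocytes and stroma, and it rose in 2 EC subtypes of the mutants. Arterial ECs held 78.2 and 51.4 CPM in mutants and 27.9 and 23.5 CPM in controls (1.40, SE 0.25, adjusted p 0.0015, beside 4.81% of genes). In metaphyseal ECs it was at 12.6 and 7.92 CPM against 2.87 and 4.18 CPM (1.58, SE 0.46, adjusted p 0.0225, beside 6.42% of genes), a result lost without mutant replicate 1, control replicate 1 or control replicate 2 (adjusted p 0.23, 0.247 and 0.0996, up to 0.274 over the alternatives). In all ECs together it was at 24.1 and 17.6 CPM against 7.72 and 7.83 CPM (1.48, SE 0.20, adjusted p 6.34e-05, beside 8.62% of genes). ECs are the cells that the Lats2 deletion was targeted to. In ECs without a subtype Ptger4 was at 4.90 and 10.4 CPM against 7.67 and 13.8 CPM (-0.33, adjusted p 0.769), and in sinusoidal ECs it was too sparse to test. Reticular stromal cells carried Ptger4 at similar levels in both genotypes, 27.9 and 21.1 CPM against 30.2 and 33.1 CPM (-0.35, adjusted p 0.0771).

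Ptger2 was a receptor of sinusoidal ECs and smooth muscle. It averaged 27.9 CPM (19.0 to 31.0) in sinusoidal ECs and 19.7 CPM in smooth muscle, and 3.04 CPM or less in every other gate. In sinusoidal ECs it was at 30.6 and 19.0 CPM in mutants and 31.0 and 31.0 CPM in controls and not past the thresholds (-0.30, adjusted p 0.506). Over all ECs it was lower in mutants, at 5.59 and 3.83 CPM against 10.5 and 11.2 CPM (-1.15, SE 0.25, adjusted p 0.00302), a sum in which the makeup of EC subtypes can differ between genotypes. Hpgd was lower in the same sum, at 0.645 and 1.33 CPM against 4.04 and 4.84 CPM (-2.01, SE 0.44, adjusted p 0.00276). Ptger1 was the sparsest receptor, at 18.1 CPM or less in any library. It passed the thresholds in other chondrocytes at 0.897 and 0.943 CPM against 0.351 and 0.472 CPM (1.22, SE 0.43, adjusted p 0.0436), from 14 and 16 against 5 and 7 UMIs, and leaving out any 1 library ended the call (adjusted p 0.147 to 0.279, up to 0.392 over the alternatives).

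**Figure D5:**
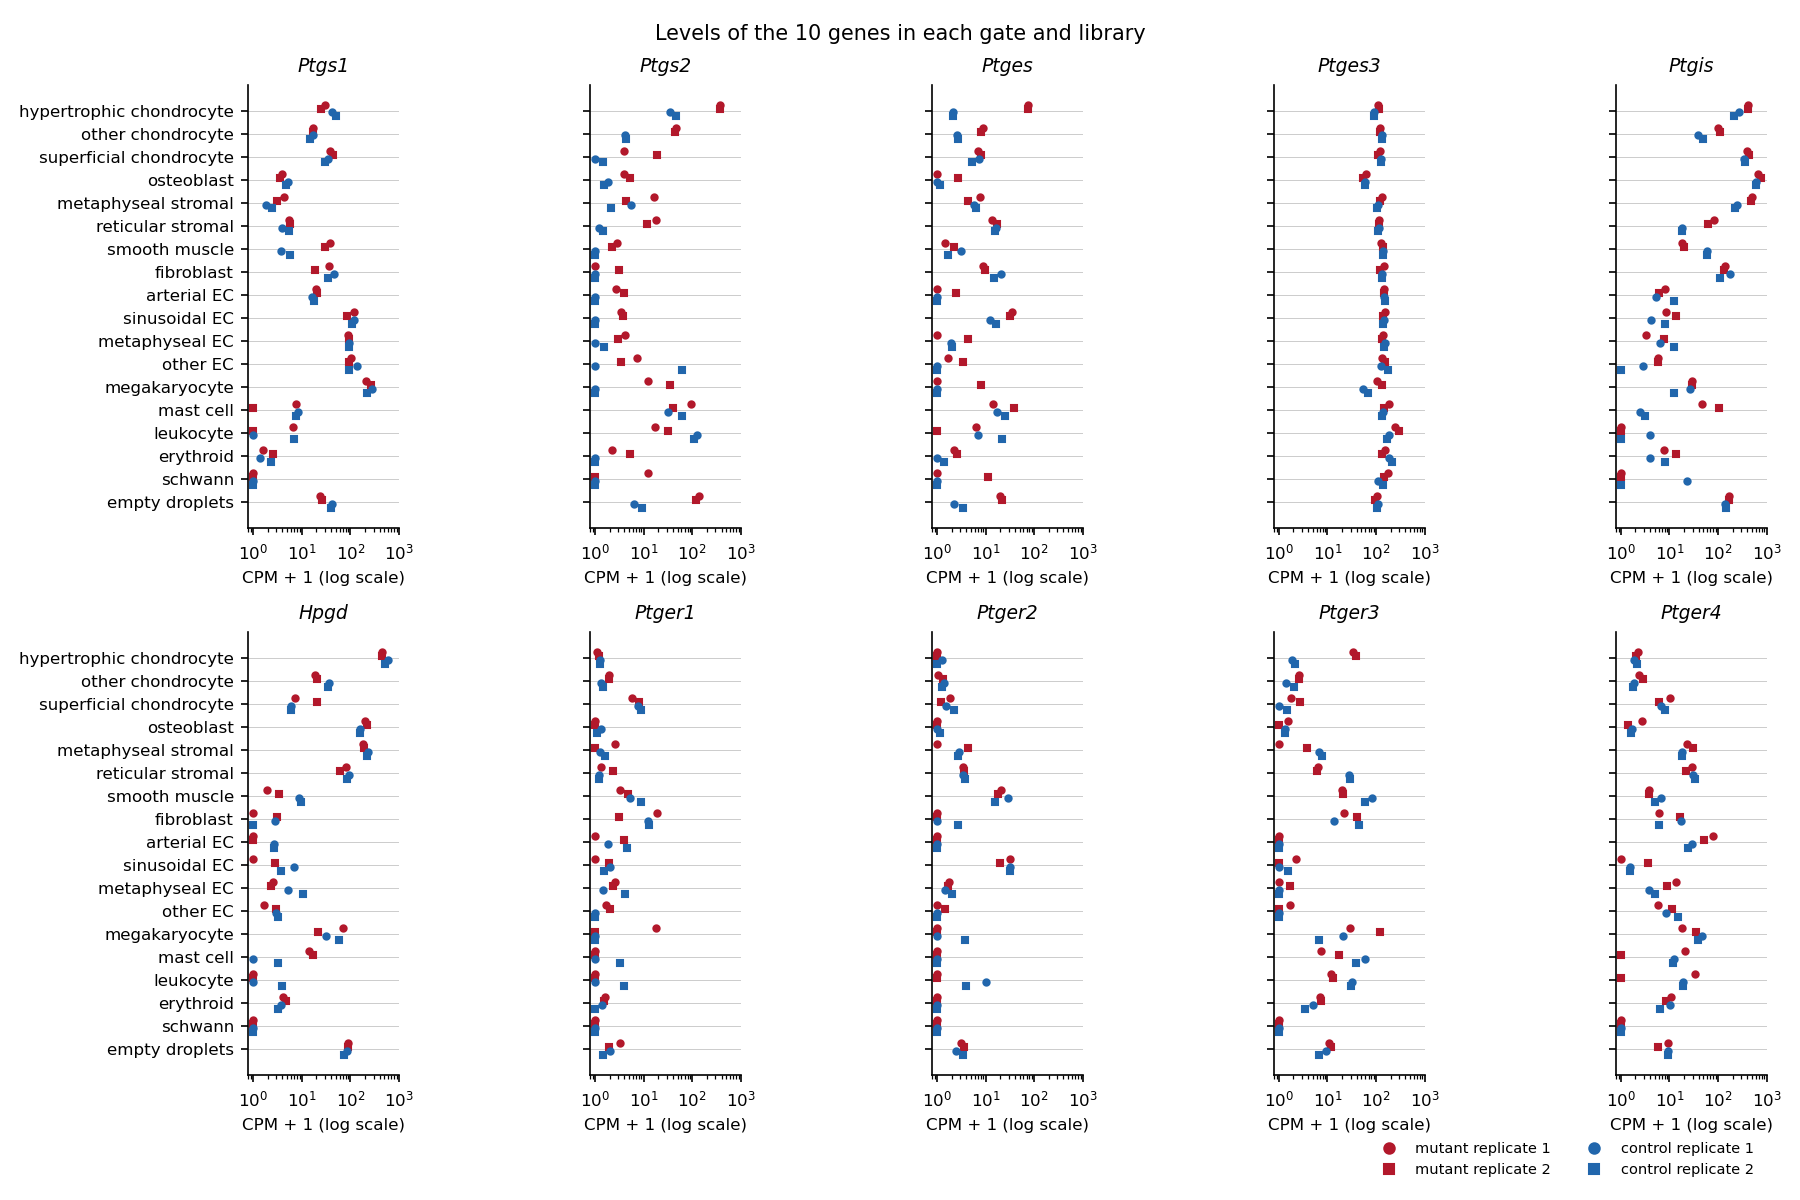
Level of each of the 10 genes (CPM + 1, log axis) in each gate and in empty droplets. Points are single libraries, mutant in red and control in blue. Hpgd peaks in hypertrophic chondrocytes, Ptgis in osteoblasts, Ptgs1 in megakaryocytes, Ptger4 in arterial ECs and Ptger2 in sinusoidal ECs.

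The rest of the prostanoid pathway was followed over 35 further genes of arachidonate release, other synthases, transport, receptors and the leukotriene branch. In the hypertrophic gate 21 were tested, and 2 were higher and 2 lower in mutants past the thresholds, beside 9.32% and 5.0% of all genes, with a median log2 fold change of -0.17 against -0.0018 over all genes. Pla2g4a, the cytosolic phospholipase that frees arachidonic acid, was at 66.8 and 73.6 CPM in mutants and 29.9 and 23.9 CPM in controls (1.38, SE 0.12). In the shared cluster its order turned, at 12.1 and 14.8 CPM in mutants and 31.5 and 26.1 CPM in controls, and in the mutant cluster it was at 106 and 113 CPM. Like Ptgs2, Pla2g4a thus exceeded the control levels of the gate in the mutant cluster and not in the shared cluster. Prxl2b, a prostaglandin F synthase, was at 24.3 and 27.0 CPM against 12.5 and 11.3 CPM. Ptgds, which makes prostaglandin D2, was at 2.20 and 0.693 CPM against 5.53 and 9.0 CPM. Ltc4s, the leukotriene C4 synthase, was at 0.880 and 0.693 CPM against 7.47 and 3.66 CPM.

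In other chondrocytes 4 of 26 pathway genes were higher in mutants (Hpgds, Pla2g4a, Plaat3 and Slco2a1) and Ptgds was lower, beside 7.35% and 2.71% of all genes. Pla2g4a was at 13.2 and 16.4 CPM there against 5.23 and 5.52 CPM (1.54, SE 0.15), and Ptgds at 9.16 and 8.43 CPM against 27.3 and 27.2 CPM (-1.56, SE 0.097). In superficial chondrocytes Pla2g4a was not past the thresholds (-0.15, adjusted p 0.879). Slco2a1, the prostaglandin transporter, fell in metaphyseal ECs to 182 and 148 CPM from 381 and 378 CPM (-1.13, SE 0.11, adjusted p 8.68e-06). Alox12, a lipoxygenase, fell in metaphyseal ECs to 11.0 and 15.8 CPM from 31.1 and 41.3 CPM (-1.33, SE 0.27, adjusted p 0.00326). Alox12 and Slco2a1 were also lower in sinusoidal ECs, Alox12 in ECs without a subtype (5.38% of genes) and the prostaglandin F receptor gene Ptgfr in metaphyseal stromal cells. Pla2g4a and Pla2g15, another phospholipase, were higher in smooth muscle, and Hpgds, a prostaglandin D synthase, in superficial chondrocytes. No pathway gene passed in arterial ECs, osteoblasts or reticular stromal cells, where 15, 19 and 21 were tested, beside 4.81%, 2.15% and 4.79% of all genes.

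Ptgs2 is an immediate early gene that tissue digestion can induce, so 12 genes known to respond to dissociation were read beside it. In the hypertrophic gate 5 of 12 were higher in mutants and 1 lower, beside 9.32% and 5.0% of all genes, with a median log2 fold change of 0.94 against -0.0018 over all genes. Atf3 was at 838 and 789 CPM against 168 and 248 CPM, Ier3 at 639 and 595 CPM against 130 and 184 CPM, and Junb at 3982 and 3803 CPM against 1216 and 1613 CPM. The heat shock gene Hspa1b went the other way, at 64.2 and 68.9 CPM against 196 and 166 CPM. In other chondrocytes, where Ptgs2 had its smallest adjusted p, none of the 12 was higher and 2 were lower, beside 7.35% and 2.71% of genes. That count covers the whole gate of 1048 and 1160 mutant barcodes, while most of its Ptgs2 UMIs lay in 95 and 87 of them. It therefore does not describe the barcodes that carried Ptgs2. In 2 gates where Ptgs2 rose, genes of the list were higher too, 7 of 12 in reticular stromal cells (3.52% of all genes) and 5 of 12 in osteoblasts (1.93%), and in superficial chondrocytes, where it also rose, none was (0.722%). Genes of the list were also higher in gates where Ptgs2 was not past the thresholds or not tested, with 11 of 12 in metaphyseal stromal cells (4.22%), 9 in arterial ECs (3.22%) and 8 in erythroid cells (5.31%), where 2 were lower (1.09%). The number was 3 in smooth muscle (5.46%), 2 in fibroblasts (0.243%), 2 in sinusoidal ECs (3.62%), 1 in metaphyseal ECs (3.68%) and 1 in ECs without a subtype (3.1%), with 2 genes lower in each of these 3 EC gates, beside 1.63%, 2.74% and 2.28% of all genes lower there. In leukocytes, where Ptgs2 fell, 5 of 11 genes tested were lower, beside 0.748% of all genes, and none higher, and in mast cells likewise 5 of 11 (0.938%). Arterial ECs, where Ptger4 rose, thus had 9 of 12 of these genes higher too, and their part in the member results was not tested.

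Genes that respond to cAMP, the messenger of Ptger2 and Ptger4, were read too and share 4 genes with that list (Fos, Fosb, Junb and Dusp1). In the hypertrophic gate 3 of 12 tested were higher (Fosb, Junb and Sik1, beside 9.32% of all genes), with a median log2 fold change of 0.67. In metaphyseal stromal cells 9 of 12 were higher (4.22%), in arterial ECs 8 (3.22%), in erythroid cells 7 of 11 (5.31%), in reticular stromal cells 5 (3.52%), in osteoblasts 4 (1.93%), in smooth muscle 3 (5.46%) and in fibroblasts 1 of 11 (0.243%). In other chondrocytes 2 were higher, Nr4a1 and Sik1 (7.35%), and none lower. In metaphyseal ECs, where Ptger4 rose, none of 12 passed (3.68% higher, 2.74% lower), and in superficial chondrocytes none did (0.722%). In leukocytes (0.748%) and mast cells (0.938%) Dusp1 and Fos were lower, and Nr4a1 was higher in mast cells (1.12%). In sinusoidal ECs Pde4b, a cAMP-degrading phosphodiesterase, alone passed, at 171 and 266 CPM against 88.4 and 75.9 CPM, beside 3.62% of genes higher there, and it alone passed in ECs without a subtype (3.1%).

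The genes most alike each member over the 68 sums of 17 gates and 4 libraries were found among 14898 genes by Pearson's r of log2(CPM + 1). Ptgs2 was most like Tmsb15l (0.74), Pafah1b3 (0.71) and Pank1 (0.67), and Ptges most like A530013C23Rik (0.62), Cebpb (0.60) and Fdx1 (0.59). Hpgd was most like Gm45540 (0.87), Intu and Pth1r (both 0.81), the last being the receptor for parathyroid hormone and PTHrP. Ptgis was most like Creb3l1 and Dcn (both 0.84) and Ccdc80 (0.83), and Ptgs1 most like Alox12 (0.79), Fam214b and Sdcbp (both 0.77). Ptges3 was most like Dnaja2 and Matr3 (both 0.83) and Cnbp (0.82). Of the receptors, Ptger2 was most like Rgs4 (0.83), Tmem273 (0.80) and Cdk18 (0.77), Ptger3 like 5830408C22Rik (0.73), Dgkg (0.72) and Rab37 (0.69), and Ptger4 like Dipk1a (0.73), G6pdx (0.67) and Riox1 (0.66). The sums share libraries and depth, so these are descriptions.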

How the data were processed

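Single-cell RNA-seq (10x Genomics 3′ V3) of 4 mouse bone libraries was analysed. The deposited values were expected counts of UMIs per gene and barcode: the authors trimmed reads with cutadapt 3.5 and counted them with STARsolo 2.7.10a, sharing reads that map to several genes by expectation maximization, on the mouse genome mm39 with GENCODE M26 genes plus the transgene sequences.

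Barcodes were kept with at least 1000 UMIs, 800 genes, no more than 15% of UMIs from mitochondrial and 5% from hemoglobin genes, and a complexity of 0.8 or more, the limits the authors describe. The total per library limits precision for sparse genes. Cells were gated by marker scores (at least 0.25; hypertrophic 0.35 with 3 of 5 markers including Col10a1); 2222 barcodes with markers of several lineages and 1366 with too few were left out of the gates. Clusters (Leiden, resolution 1.5, scanpy 1.11.5, without the members and without integration of the libraries) named the parts of a gate. Scrublet doublets were kept in the main result and left out in an alternative. Counts were summed per library and gate (at least 10 barcodes each), rounded, and tested in edgeR 4.0.16 (quasi-likelihood, TMM) with Benjamini-Hochberg adjustment over all genes of a gate. The SE is the size of the log2 fold change divided by the square root of the F statistic, and it understates counting error at few UMIs. R was 4.3.3 and DESeq2 1.42.0. The scripts were tested on simulated data.

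The members and lists were chosen with earlier results of these data known. Members were named with values in gates where they reached 5 CPM in a library; those named with values below that, such as Ptger1 and Ptger3 in other chondrocytes and Ptgs2 in osteoblasts, were chosen after their values were seen. List genes were named where past the thresholds in the hypertrophic gate, plus at most 5 per other gate with the largest changes; likeness used members and genes that reached 20 CPM. Gene positions and upstream sequences came from GRCm39 with GENCODE M39, matched by gene ID.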

Additional observations from a re-analysis of the deposited data

Results flagged for a closer look

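The genotype gap differed between hypertrophic and other chondrocytes for 3 members. The gap of hypertrophic cells exceeded that of other chondrocytes by 3.72 (log2) for Ptges and 3.96 for Ptger3, and was lower by a difference of -1.0 for Ptgs1. These come from the interaction of gate and genotype and are descriptions, since the hypertrophic contrast was known.

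Ptgs2, Ptgis and Ptger3 each moved in opposite directions in different gates, and the differences between these gates were not tested. For Ptgs2 the log2 fold change was 3.24 in hypertrophic chondrocytes, 3.89 in other chondrocytes, 5.2 in superficial chondrocytes, 5.27 in reticular stromal cells and 2.44 in osteoblasts, but -2.27 in leukocytes. For Ptgis it was 5.21 in mast cells, 1.13 in metaphyseal stromal cells, 1.36 in other chondrocytes and 2.08 in reticular stromal cells, but -1.65 in smooth muscle. For Ptger3 it was 5.15 in hypertrophic and 1.17 in other chondrocytes, but -1.98 in metaphyseal stromal cells, -2.33 in reticular stromal cells and -1.77 in smooth muscle.

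Barcodes outside every gate and droplets without a cell also carried the signal. In barcodes with too few markers for any gate, Ptgs2 was at 194 and 212 CPM in the mutant libraries and 4.06 and 16.2 CPM in the controls, and Ptges at 31.1 and 31.8 CPM against 2.03 and 1.08 CPM. In empty droplets Ptgs2 was at 137 and 118 CPM in mutants and 5.34 and 8.06 CPM in controls, and Ptges at 19.0 and 20.9 CPM against 1.27 and 2.44 CPM.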

How the results depend on the processing

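Of the 21 results past the thresholds outside the hypertrophic gate, 20 kept their direction and 7 stayed past the thresholds under every alternative that could test them: Ptger4 in arterial ECs and Ptger3 in smooth muscle, and, outside the filter to genes found in 20% of cells, which did not test them, Ptgs2 and Ptges in other chondrocytes, Ptgs2 and Ptger3 in reticular stromal cells and Ptgs1 in smooth muscle. DESeq2 gave 12 and that filter gave 5, fewer because most members are too sparse to be tested under it; the cause of the DESeq2 count was not tested. Leaving out 1 library gave between 17 and 21. The replicate block gave 23; the numbers do not pair the libraries, whose deviations correlated between -0.055 and 0.12 by gate. With clusters in place of gates Ptgis in reticular stromal cells was -0.16 (log2). Restricting the hypertrophic gate to the shared cluster, chosen after seeing the data, gave 1 member past the thresholds, Hpgd (-1.0), which was not among the 3 past them in the whole gate; Ptgs2 was -0.69 and Ptgis -0.029 there, and Ptges and Ptger3 were not tested. Against other chondrocytes Ptges was -0.35 in the control libraries alone, also chosen after seeing the data, and leaving out 1 library moved Ptger4 between -0.36 and 0.10, the latter without mutant replicate 2. The mean share of hypertrophic barcodes with a Ptgs2 UMI went from 52.5% to 39.8% when thinned and 53.0% under stricter filters in mutants, and from 11.5% to 5.35% when thinned in controls. Low counts limit Ptger1, Ptger2 and Ptger4 in chondrocytes.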
